A study of Equus caballus with 19 samples.

Results

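The 10 chemokine genes described here were CXCL1, CXCL2, CXCL6, MIP-2BETA, CXCL8, CXCL12, CCL2, CCL5, CCL20 and CX3CL1. They were taken by gene name from 2 tables of normalised counts that each hold 29196 gene names, and all 10 passed the filter on low values in both tables. The cells were wild-type equine tenocytes, the resident fibroblasts of tendon, grown out of the superficial digital flexor tendon of 8 horses as 1 line per horse. They were held in gels of bovine type I collagen and sequenced at day 14. In the first batch, lines 1 to 5 were cultured without cytokine (control) or with 1 nM IL-1β, which gave 10 libraries. In the second batch, lines 6 to 8 were cultured as control, with 1 nM IL-1β, or with 1 nM IL-1β plus 100 ng/ml of the IL-1 receptor antagonist IL1Ra, which gave 9 libraries. No library of IL1Ra alone was analysed here. The cells had been expanded by passage from collagenase digests of tendon, so a line is a mixed primary culture and not a clone.

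Chemokines are small secreted proteins that steer migrating cells along a concentration gradient by binding receptors on their surface. The CXC chemokines related to CXCL8 mainly attract neutrophils through CXCR1 and CXCR2, whereas CC chemokines such as CCL2, CCL5 and CCL20 attract monocytes, T cells and dendritic cells. Stromal fibroblasts, tenocytes included, produce several of them when IL-1 binds its receptor, and IL1Ra occupies the same receptor without signalling. In RefSeq's gene order for the horse, CXCL1, MIP-2BETA, CXCL2, CXCL6 and CXCL8 lie in a single cluster together with PPBP and an unnamed gene. CXCL1, CXCL2, CXCL6 and MIP-2BETA are similar in sequence, so reads could be split among them when they are assigned to transcripts. Each of the 4 values is therefore uncertain, and their sum was tested as well.

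Library totals ran from 43.4 to 49.2 (first batch) and from 25.0 to 34.6 (second batch), in units of 1e+06 normalised counts. Each batch was normalised separately by the authors, so tests were made within a batch. Of the tendon markers, COL1A1 lay between 40715 and 875669 normalised counts. Tenomodulin (TNMD) was listed at 0 throughout the first batch and reached at most 1.00 in the second. Other tendon markers differed between the lines. In the controls of lines 6, 7 and 8, SCX had 4720, 266 and 105 normalised counts. MKX had 4059, 151 and 11.5 there, and THBS4 had 632, 14.1 and 16.4. The first-batch controls lay between 822 and 2110 for SCX, 792 and 4654 for MKX, and 6.97 and 191 for THBS4. Among 8 leukocyte markers, 5 stayed at or under 50 normalised counts throughout the first batch, 6 did so throughout the second, and the pan-leukocyte gene PTPRC reached at most 6.46. In bulk libraries, a change in the number of cells of a type and a change in RNA per cell cannot be told apart.

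IL-1β raised all 5 neutrophil-attracting CXC chemokines, CCL20, CCL2 and CCL5 in the first batch. The 10 genes together took between 0.0189% and 0.0727% of the normalised counts of a control library in the first batch, and between 1.92% and 3.85% of an IL-1β library. Of the 10 genes, 8 were upregulated and 0 downregulated at the threshold for differential expression (DE), which was an adjusted p under 0.05 and a log2-fold change of at least 1 in either direction. The test was limma's, run on values of log2(normalised count + 1). The filter asked for 10 normalised counts in 5 or more libraries of either condition. CXCL2 and CCL5, below 10 in some controls, passed it only through their IL-1β libraries. Their calls and the separation of their groups are therefore not independent of the filter. In the same comparison 4.91% of the 14719 genes tested were upregulated, 7.9% were downregulated and 12.8% were DE in either direction. The median log2-fold change of the 10 genes was 8.01, against −0.0034 for all genes. An unadjusted p under 0.05 was reached by 9 of the 10 (39.5% of all genes). When libraries were compared within each line (line as block), 9 of the 10 were upregulated and 0 downregulated, against 6% and 10.2% of all genes, or 16.2% in either direction, and 9 had an unadjusted p under 0.05 (51.9% of all genes).

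**Figure D1:**
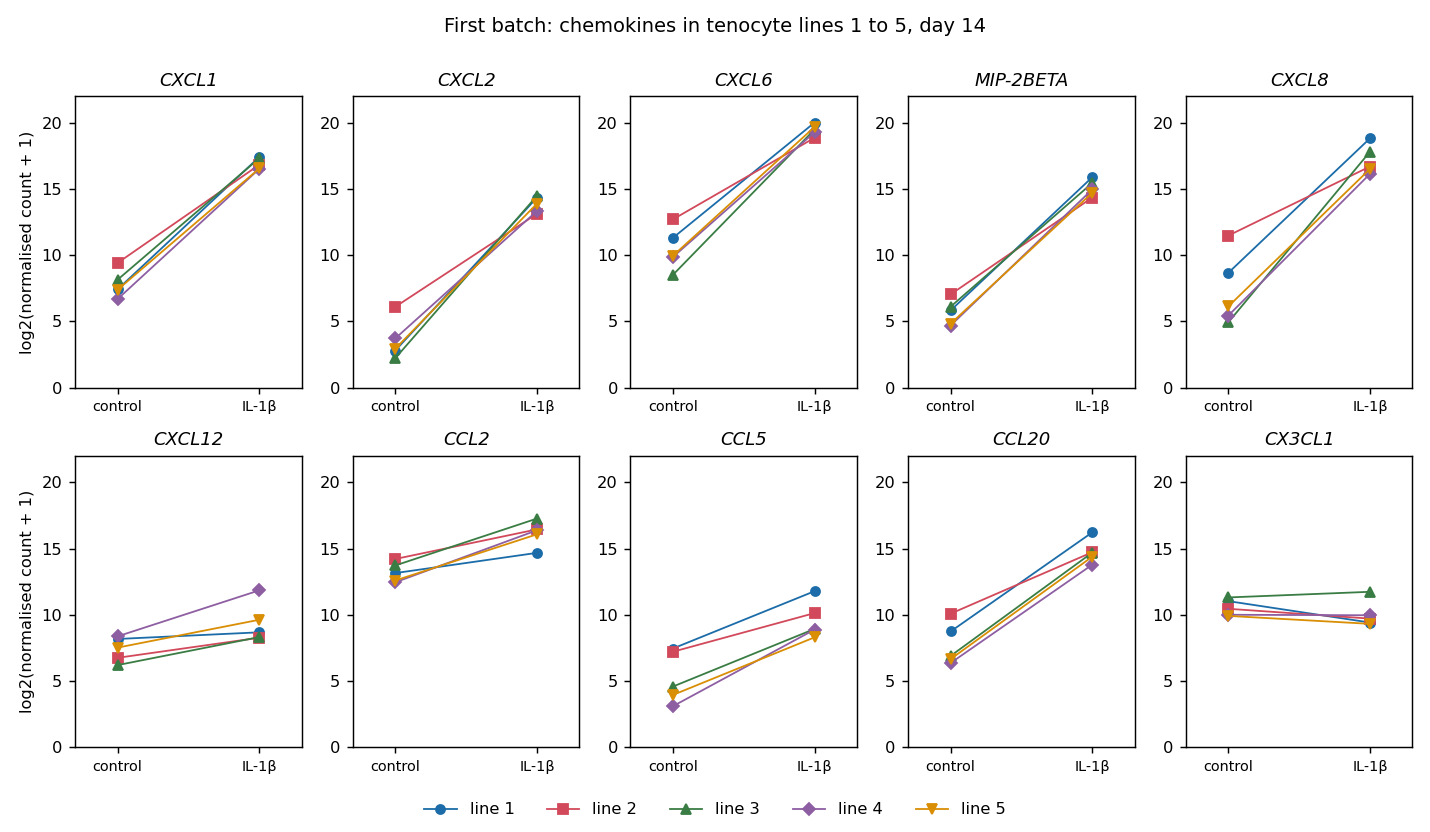
Levels of the 10 chemokine genes in the first batch, as log2(normalised count + 1) on the vertical axis for control and IL-1β, with 1 point per library and a line joining the libraries of each of tenocyte lines 1 to 5. For 8 genes every IL-1β point lies above every control point. CXCL12 and CX3CL1 are the exceptions.

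CXCL6, a granulocyte chemotactic protein, had 2546, 6695, 366, 933 and 995 normalised counts in the controls of lines 1 to 5. With IL-1β the same lines had 1066107, 480716, 743063, 642660.3 and 846612. The groups did not overlap, and line 2 had both the highest control and the lowest IL-1β value. The difference was 9.003 on the log2 scale (standard error, SE, 0.65, adjusted p = 1.80e-05). CXCL8, a neutrophil attractant also called IL-8, had control values of 406, 2859, 29.4, 42.4 and 69.1 and IL-1β values of 464876, 106475, 231031, 72400.2 and 93788. Its groups were likewise separate, although the controls alone spanned a wide range. CXCL8 rose by 9.87 on the log2 scale (SE 1.14, adjusted p = 2.61e-04), and its change within a line ran from 5.22 in line 2 to 12.89 in line 3 on the log2 scale.

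CXCL1, which binds CXCR2, had 170.5, 684, 283, 102 and 168 normalised counts in the controls and 175648, 116897, 164373, 94396 and 96244 with IL-1β. The IL-1β libraries differed from each other by at most 1.86-fold, and the difference was 9.12 on the log2 scale (SE 0.44, adjusted p = 1.25e-06). CXCL2, of the same subgroup, rose from 5.98, 67.7, 3.67, 12.1 and 6.68 in control to 20847, 8973, 22954, 10389.8 and 15252. Its control in line 2 was the highest and its IL-1β value in line 2 the lowest, with no overlap, and CXCL2 rose by 10.28 on the log2 scale (SE 0.64, adjusted p = 7.33e-06). MIP-2BETA, whose name is an older one for the neutrophil attractant CXCL3, had 55.9, 131, 68.2, 24.9 and 27.5 in control and 60948, 21019, 45099, 32185 and 26959.5 with IL-1β. It changed by 9.38 on the log2 scale (SE 0.45, adjusted p = 1.25e-06), with no overlap between the groups.

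Summed over CXCL1, CXCL2, CXCL6 and MIP-2BETA, the controls had 2779, 7577, 721, 1073 and 1197 normalised counts, and the IL-1β libraries had 1323550.0, 627606, 975488, 779632 and 985067. The sum rose in 5 of 5 lines, by 8.97 on the log2 scale (SE 0.56, adjusted p = 7.83e-06 by limma). A two-sided exact permutation test of the sum gave p = 0.00794, which is the lowest value possible with 252 arrangements. This test exchanged libraries freely between lines, so it ignored the pairing of control and IL-1β within a line. CXCL6 held 76.2% to 85.9% of the sum in the IL-1β libraries and 50.8% to 91.6% in the controls, as shares of counts that depend on transcript length. CXCL1 held 9.77% to 18.6% with IL-1β and 6.14% to 39.3% in control.

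CCL20, which attracts CCR6-bearing lymphocytes and dendritic cells, had 427, 1086, 118, 81.2 and 99.9 normalised counts in control and 76792, 27173, 26633, 14135 and 21532 with IL-1β. Every IL-1β library was above every control, and the difference was 7.02 on the log2 scale (SE 0.72, adjusted p = 1.43e-04). CCL2, a monocyte attractant, had 9102, 19041, 13568, 5630.4 and 6174 normalised counts in control and 26255, 89810.1, 158082, 85594 and 69346 with IL-1β. The lowest IL-1β value, in line 1, was still above every control, and CCL2 rose by 2.94 on the log2 scale (SE 0.47, adjusted p = 0.00155). CCL5, which attracts T cells and monocytes, rose from 174, 147, 23.0, 7.56 and 14.5 to 3534, 1122, 489, 473 and 315. Lines 1 and 2 were the highest in both conditions, and the difference was 4.35 on the log2 scale (SE 0.94, adjusted p = 0.00718).

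CXCL12, a constitutive stromal chemokine that retains CXCR4-bearing cells, had 288, 107, 72.6, 331 and 183 normalised counts in control and 409, 308, 318, 3686 and 789.7 with IL-1β. It was higher with IL-1β in 5 of 5 lines, but the groups overlapped, and line 4 stood above the rest. Its log2-fold change of 1.94 (SE 0.69) had an adjusted p of 0.0595 without the block and of 0.00798 with it. Without line 4 the change was 1.56 and the adjusted p 0.0486. CX3CL1, a chemokine made as a membrane-bound adhesion molecule and shed by proteases, had 2096, 1404, 2543, 1026 and 967 in control and 683, 839, 3417, 999.8 and 637 with IL-1β. It was lower in 4 of 5 lines and higher in line 3, and the log2-fold change of −0.51 (95% confidence interval −1.52 to 0.50, adjusted p = 0.439) did not pass the test.

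The lines differed in how far the 5 neutrophil-attracting CXC genes changed. The median change over these 5 genes was 7.03 on the log2 scale in line 2, and 10.07, 10.98, 9.83 and 9.89 in lines 1, 3, 4 and 5. Line 2 had the highest control value for 7 of the 10 chemokine genes and the smallest change for 7. Without line 2 the summed CXC group changed by 9.62, and the count of upregulated chemokine genes was 8 as before. Across the first batch, 8 of the 10 genes had groups that did not overlap, against 19.5% of all genes tested.

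Markers of other cells were read in the same libraries. The leukocyte list summed to 58.3 to 2076 normalised counts in the first-batch controls and to 312 to 3712 with IL-1β. Its monocyte gene CD14 had 1947 and 2811 normalised counts in control and IL-1β of line 5, at most 71.4 in the other lines of that batch, and 1195, 1158 and 1482 in control, IL-1β and IL-1β + IL1Ra of line 6. In line 7 CD14 had 0, 1262 and 645 in the same order, and in line 8 it was listed at 0. In the first batch CD68, a macrophage marker, was the 1 of the 8 leukocyte genes that passed the filter. There it was upregulated by 2.64 on the log2 scale (limma adjusted p = 0.00265). The T-cell and B-cell genes CD3E and CD79A were listed at 0 throughout the first batch. In the second batch the leukocyte list summed to 231 to 1270.4 in control, 676 to 3052 with IL-1β and 731 to 2049 with IL-1β + IL1Ra. Of its genes 3 passed the filter in that batch, and CD68 was upregulated within lines (limma adjusted p = 0.0369). The endothelial list summed to at most 84.7 in any library, and 2 of its genes were tested in the first batch. PECAM1 was upregulated within lines, at 1.68 (adjusted p = 0.0455, and 0.115 without the block), while VWF had a log2-fold change of −1.53 (adjusted p = 0.0563 within lines and 0.0950 without the block). Of the epithelial list CDH1 fell by 4.75 in the first batch (adjusted p = 0.00213), with EPCAM at most 1.21. Of 6 tendon genes tested, COL1A1, COL1A2, SCX, MKX and THBS4 were downregulated in the first batch. The other gene, DCN, was not DE and had higher values with IL-1β. Its controls of lines 1 to 5 had 48987, 44076, 59314, 93120 and 60475 normalised counts. With IL-1β the same lines had 67407, 72301, 118778, 132486 and 117019. DCN in lines 6 to 8 had 55627, 29947 and 42147 in control and 170170, 85795 and 135436 with IL-1β. The tendon list summed to 987193 to 1750040.1 in the first-batch controls and 424747 to 798818 with IL-1β. SCX fell by 3.18 in the second batch within lines (adjusted p = 0.0223), the only tendon gene DE of 6 tested there. COL1A1 and COL1A2 were lower with IL-1β in lines 6 and 7 but higher in line 8. COL1A1 in line 8 had 87792 normalised counts in control and 131132 with IL-1β. The tendon list summed to 236898 to 797987 in the second-batch controls and 304001 to 458469 with IL-1β, so the groups overlapped. The part of these cells in the chemokine results was not tested.

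In the second batch, IL-1β raised CXCL1, MIP-2BETA and CCL20 at the DE threshold. The median log2-fold change was 7.74 for the 10 genes and −0.0084 for the 16705 that were tested. These were 3 of the 10 genes, with 0 downregulated, against 0.269% and 0.0718% of all genes (0.341% in either direction). Within lines (line as block) 8 were upregulated, all but CXCL12 and CX3CL1, against 2.59% of all genes upregulated, 2.59% downregulated and 5.18% in either direction. An unadjusted p under 0.05 was reached by 8 of the 10 without the block (11.4% of all genes) and by 9 with it (22.2%). Leaving out line 6 gave 6 DE chemokine genes, whereas leaving out line 7 or line 8 gave 0. For 8 of the 10, the 3 IL-1β libraries did not overlap the 3 controls, against 16.4% of all genes. CXCL2 and CCL5 again passed the filter only through libraries given IL-1β, with or without IL1Ra. Their results in this batch are not independent of the filter either.

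**Figure D2:**
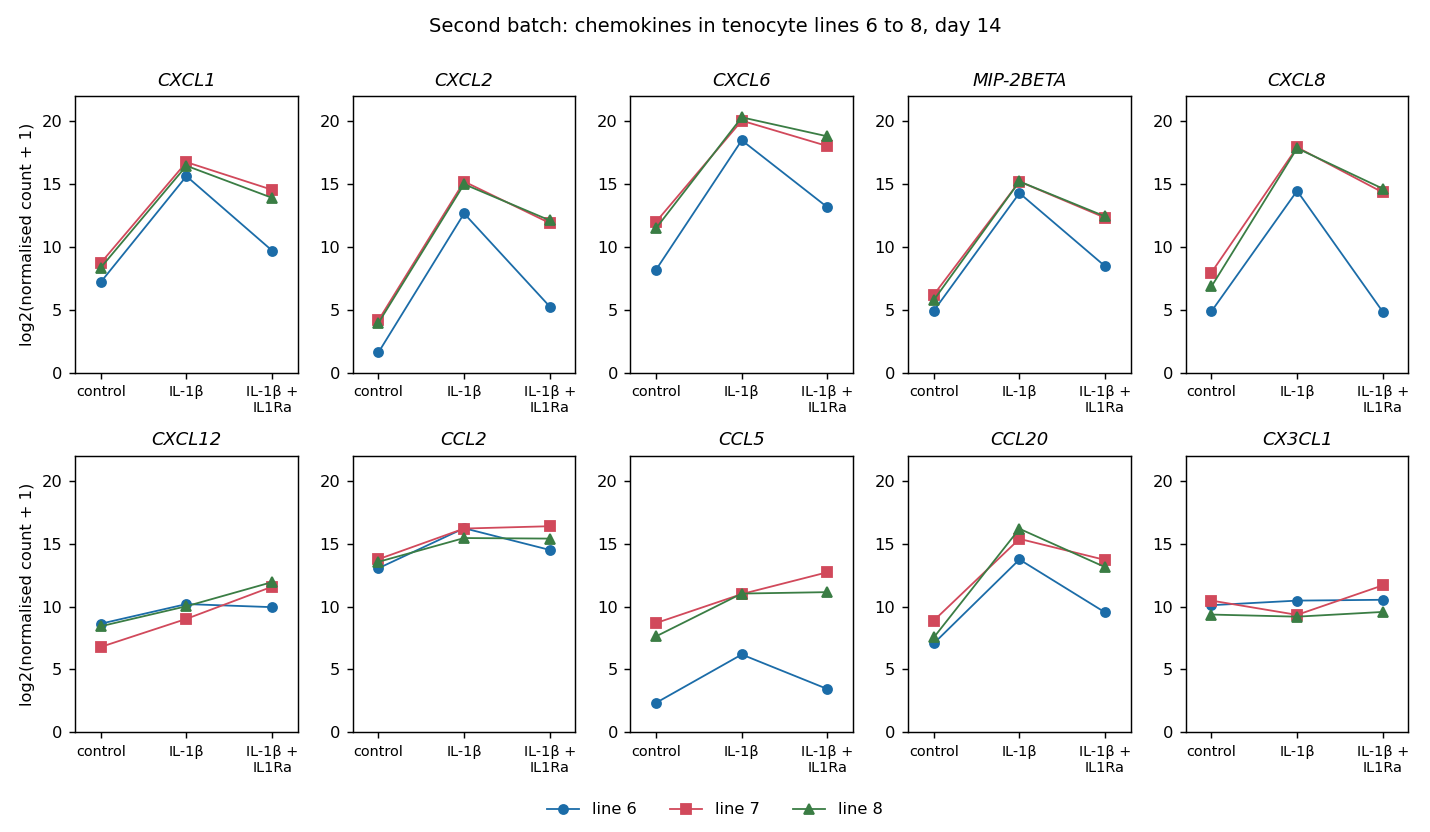
Levels of the 10 chemokine genes in the second batch, as log2(normalised count + 1) on the vertical axis for control, IL-1β and IL-1β + IL1Ra, with 1 point per library and a line joining the libraries of each of tenocyte lines 6 to 8. In CXCL8, line 6 with IL1Ra lies at its control level, at 27.8 against 28.4 normalised counts. Lines 7 and 8 stay above their controls.

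CXCL6 had 293, 4138 and 2905 normalised counts in the controls of lines 6, 7 and 8, and 371137, 1096921 and 1319460.2 with IL-1β. With IL-1β + IL1Ra the values were 9204, 269776 and 461348. Line 6 was the lowest in each condition, all IL-1β values were above all controls, and 1 of the IL1Ra values was above the lowest IL-1β value. The log2-fold change from control to IL-1β was 9.06 (SE 1.55, adjusted p = 0.0618, and 0.00294 with the block). For IL-1β + IL1Ra it was 6.10 above control (adjusted p = 0.566, and 0.0267 with the block) and −2.96 from IL-1β alone (95% confidence interval −6.51 to 0.59).

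CXCL8 had 28.4, 249.5 and 115 normalised counts in control, 22788, 252466 and 239411 with IL-1β, and 27.8, 20896 and 25689 with IL-1β + IL1Ra. In line 6 the level with IL1Ra was that of the control, while lines 7 and 8 kept 8.28% and 10.7% of their IL-1β level. The IL1Ra group therefore overlapped the controls through line 6. The log2-fold change with IL-1β was 10.20 (adjusted p = 0.154, and 0.0116 with the block). The change from IL-1β to IL-1β + IL1Ra was −5.48, with a 95% confidence interval of −11.10 to 0.14 without the block and −8.69 to −2.28 with it, at adjusted p of 0.999936 and 0.299.

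CXCL1 had 147, 424 and 328 normalised counts in control, 51177, 111091 and 90849 with IL-1β, and 841, 24142 and 15469 with IL-1β + IL1Ra. The 3 conditions did not overlap, and the IL1Ra values lay between the others. CXCL2 had 2.04, 17.0 and 14.5 in control, 6529, 38119 and 32901 with IL-1β, and 37.3, 3845 and 4458 with IL-1β + IL1Ra. It too gave 3 separate groups, and its IL-1β change was between 11.05 and 11.07 in each line on the scale of log2(normalised count + 1). With controls this low, the added 1 weighs on that likeness. Without it the ratios of IL-1β to control were 3194, 2243 and 2263 in lines 6, 7 and 8. MIP-2BETA had 29.4, 72.3 and 53.9 in control, 20092, 38073 and 38231 with IL-1β, and 354, 5159 and 5553 with IL-1β + IL1Ra. Its 3 conditions were also apart, and it had the smallest unadjusted p of the 10 genes between IL-1β + IL1Ra and IL-1β, at 0.00403 from limma without the block and 3.18e-04 with it.

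The summed CXC group had 472, 4651 and 3302 normalised counts in control, 448935, 1284204 and 1481441 with IL-1β, and 10435, 302921 and 486828 with IL-1β + IL1Ra. It was higher with IL-1β than in control in 3 of 3 lines and lower with IL1Ra than with IL-1β alone in 3 of 3. The log2-fold change was 8.94 with IL-1β (limma adjusted p = 0.0583, and 0.00333 with the block). With IL-1β + IL1Ra it was 5.90 above control (adjusted p = 0.575, and 0.0351 with the block). Two-sided exact permutation tests gave p = 0.1 for both comparisons with control, the lowest value possible with 20 arrangements, and 0.2 for IL-1β + IL1Ra against IL-1β. These tests also ignored the pairing by line.

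CCL20 had 133, 472 and 185 normalised counts in control, 13806, 43089 and 75326 with IL-1β, and 742, 13469 and 9055 with IL-1β + IL1Ra. The IL1Ra values lay between the control and IL-1β values without overlap, though line 7 with IL1Ra came close to line 6 with IL-1β. CCL20 rose by 7.28 with IL-1β (SE 1.11, limma adjusted p = 0.0468). CCL2 had 8523, 14027 and 12117 in control, 77628, 76182 and 45099.6 with IL-1β, and 23401, 86601 and 43739 with IL-1β + IL1Ra. Both IL-1β conditions were above all controls, and they overlapped each other. The change in CCL2 from IL-1β to IL-1β + IL1Ra was −0.53, with a 95% confidence interval of −1.64 to 0.58. Without line 6 it was 0.07.

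CCL5 had 4.06, 413 and 197 normalised counts in control, 71.7, 2046 and 2102 with IL-1β, and 9.81, 6819 and 2274 with IL-1β + IL1Ra. Line 6 was the lowest in each condition, and the groups overlapped in all 3 comparisons. The IL-1β change was 3.19 on the log2 scale, higher in 3 of 3 lines, with an adjusted p of 0.770 without the block and 0.0479 with it. CXCL12 had 397, 109 and 345 in control, 1176, 519 and 1043 with IL-1β, and 992, 3069 and 3956 with IL-1β + IL1Ra. In lines 7 and 8 the level with IL1Ra was above that with IL-1β alone, and in line 6 it was below. CX3CL1 had 1106, 1425 and 659 in control, 1424, 647 and 586 with IL-1β, and 1490.4, 3306 and 762 with IL-1β + IL1Ra. The groups overlapped throughout, and the IL1Ra value was the highest of the 3 conditions in each line.

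**Figure D3:**
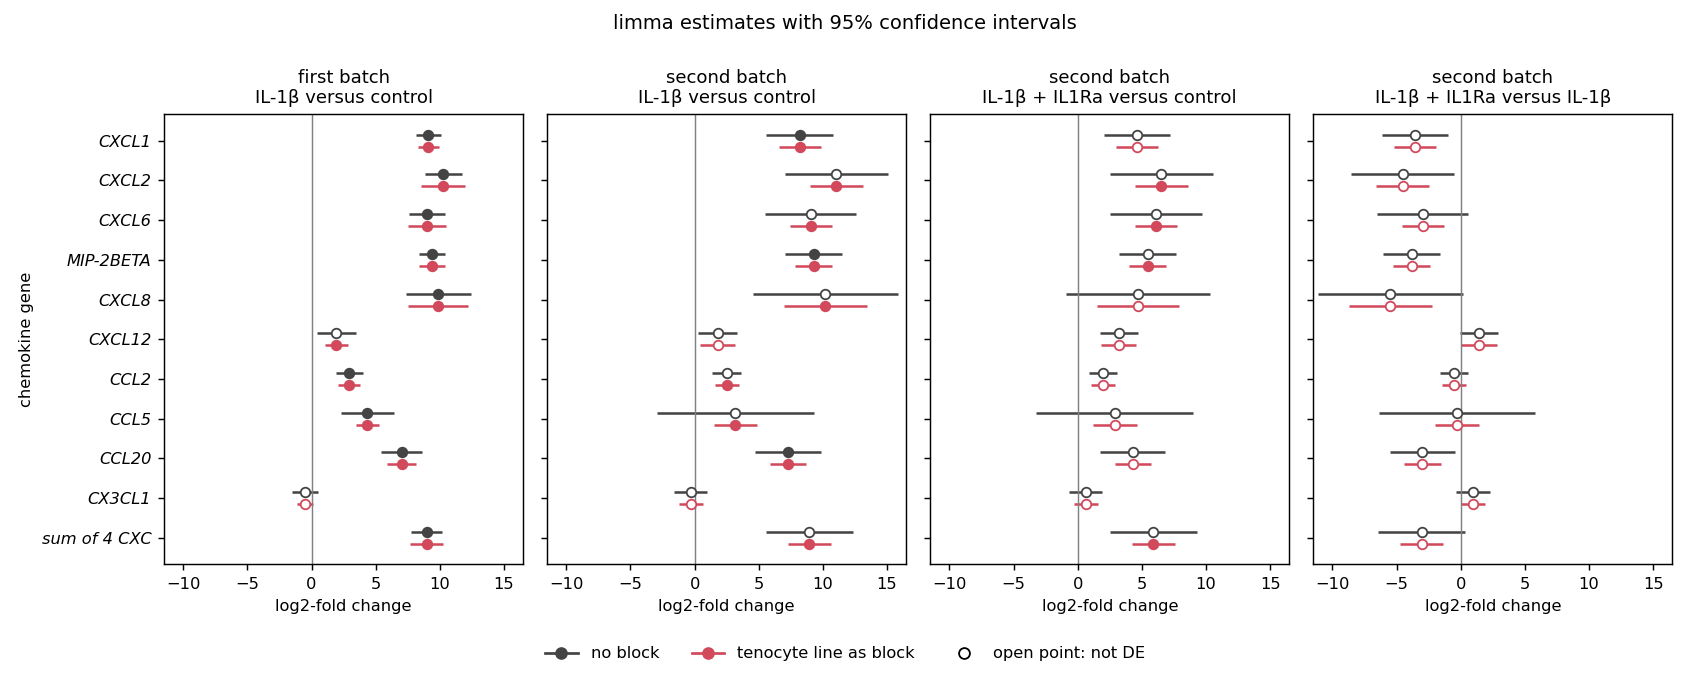
limma log2-fold changes of the 10 chemokine genes and of the sum of CXCL1, CXCL2, CXCL6 and MIP-2BETA, with 95% confidence intervals, in the 4 comparisons, without (grey) and with (red) the tenocyte line as a block. Filled points are DE, and 8, 3, 0 and 0 of the 10 genes are so without the block. The intervals of the second batch are narrower with the block.

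Between IL-1β + IL1Ra and control, 0 of the 10 genes were DE by limma without the block, where 0.012% of all genes were. With the block CXCL2, CXCL6 and MIP-2BETA were upregulated and 0 downregulated, against 0.21% and 0.0419% of all genes (0.251% in either direction). All 10 log2-fold changes were positive, with a median of 4.47 over the 10 genes and 0.01 over all genes. An unadjusted p under 0.05 was reached by 7 without the block (5.67% of all genes) and by 9 with it (13.4%). The groups did not overlap for 7 of the 10, against 11.8% of all genes. Without line 6, CXCL1, CXCL2, CXCL6, MIP-2BETA, CXCL8 and CCL20 were upregulated, each with an adjusted p between 2.97e-04 and 0.0293.

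Between IL-1β + IL1Ra and IL-1β, 0 of the 10 genes were DE by limma without the block and 0 with it, where 0% and 0.00599% of all genes were. The paper, which used DESeq2, lists MIP-2BETA as DE in each of its comparisons of these conditions. The estimate was negative for 8 of the 10 and positive for CXCL12 and CX3CL1, and the median was −2.97 against 0.01 over all genes. Unadjusted p was under 0.05 for CXCL1, CXCL2, MIP-2BETA and CCL20 without the block (2.78% of all genes), and for 7 of the 10 with it (8.38%). The groups did not overlap for these same 4, against 6.47% of all genes. Without line 6, CXCL2 and MIP-2BETA fell by 3.10 and 2.83 on the log2 scale with IL1Ra and were DE, at adjusted p of 0.0187 and 0.0276. Both comparisons with IL-1β + IL1Ra use the same 3 libraries, and both comparisons with control share the control libraries, so these results are not independent.

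The level left with IL1Ra differed between lines. Over the 5 neutrophil-attracting CXC genes, the level with IL-1β + IL1Ra was 0.122% to 2.48% of the IL-1β level in line 6, 8.28% to 24.6% in line 7 and 10.7% to 35.0% in line 8. Expressed as the log2 change over control that remained, this was −0.312% to 48.2% of the IL-1β change in line 6, 64.0% to 74.9% in line 7 and 68.5% to 82.8% in line 8. CCL20 followed with 5.37%, 31.3% and 12.0% of the IL-1β level in lines 6, 7 and 8. CCL2 stood at 30.1%, 114% and 97.0%, and CCL5 at 13.7%, 333% and 108%. CXCL12 had 84.4%, 591% and 379% of the IL-1β level, and CX3CL1 had 105%, 511% and 130%. With IL1Ra, 9 of the 10 genes were below the IL-1β level in line 6, 6 in line 7 and 7 in line 8. Line 6 had the lowest value of the 3 lines for 8 of the 10 genes in control, 7 with IL-1β and 9 with IL-1β + IL1Ra. There is 1 library per line and condition, so the difference between lines has no replicate and was not tested.

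**Figure D4:**
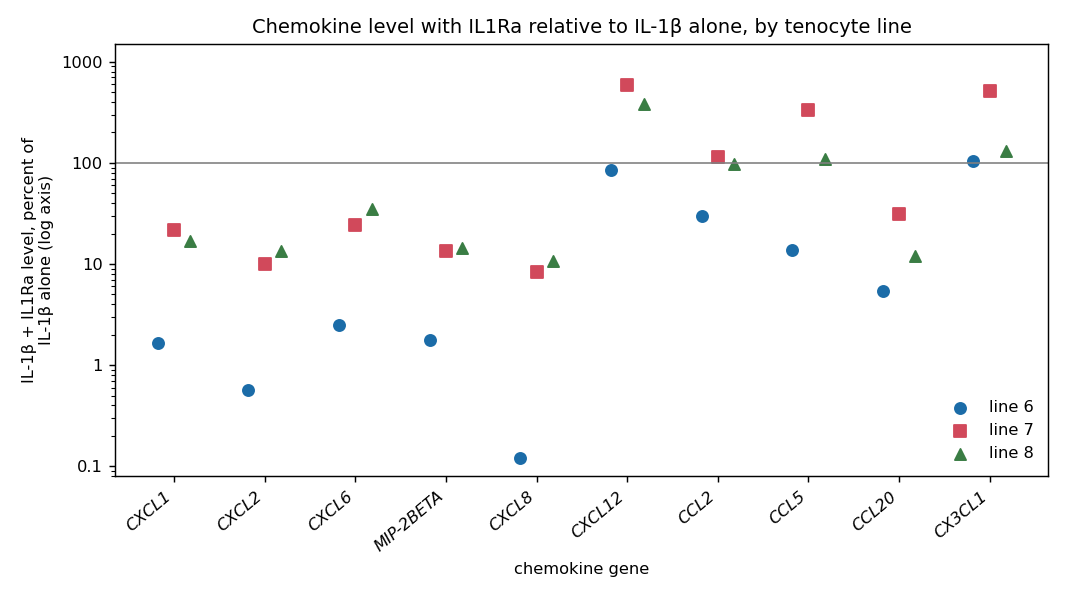
Level of each chemokine gene with IL-1β + IL1Ra as a percentage of its level with IL-1β alone, on a log axis, with 1 point for each of tenocyte lines 6, 7 and 8 and a horizontal line at 100%. Line 6 is the lowest point for all 10 genes, from 0.122% for CXCL8 to 105% for CX3CL1. CXCL12 lies at 591% in line 7.

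Relatives and receptors of these chemokines were counted as lists. Of 32 other chemokines, 25 were in the tables. In the first batch 11 of them were tested and 0 were DE by limma without the block. CCL1, a T-cell attractant, had a log2-fold change of 3.38 with an adjusted p of 0.0502, and 8.10e-04 with the block. CCL11 and CCL26, both eosinophil attractants, were DE with the block as well, at 2.02 and 1.27. The second batch had 14 that were tested and 0 were DE with IL-1β without the block. With the block the monocyte attractant CCL13 fell by 4.34 and the CCR7 ligand CCL19 fell by 3.13, at adjusted p of 0.0240 and 0.0444.

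Most of the signalling receptors were low. Of 18 receptor genes 15 were in the tables. In the first batch 11 were at 0 in each library and all 15 stayed at or under 50 normalised counts, and in the second batch 6 were at 0 and 12 stayed at or under 50. The highest of them in the second batch was CCR7, which lay between 8.07 and 435. CCR10 alone was tested in the first batch and 6 receptors in the second, and 0 were DE. CXCR2, the receptor of the neutrophil-attracting group, reached at most 10.0 in the first batch and lay between 10.97 and 33.8 in the second. A listed 0 can come from read assignment as well as from absence. Among the atypical receptors, which take up chemokines without classical signalling, ACKR4 fell by 2.34 (adjusted p = 0.0187) and ACKR2 fell by 1.27 (adjusted p = 0.0323) in the first batch, and ACKR1 joined them with the block. ACKR4, which binds CCL19, had 157, 131, 202, 297 and 189.9 normalised counts in control and 7.29, 26.8, 85.0, 111 and 31.2 with IL-1β. ACKR4 in the second batch fell by 3.10 with IL-1β (adjusted p = 0.279, and 0.0354 with the block), while ACKR3, which binds CXCL12, did not pass the test in any comparison.

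Of 5 proteases that shed or trim chemokines, MMP2 and MMP9 were upregulated in the first batch, by 1.20 and 1.54 on the log2 scale (adjusted p = 0.00508 and 7.14e-04). Of the CX3CL1 sheddases, ADAM17 passed the adjusted p (0.00378) with a log2-fold change of 0.48, under the fold threshold, and ADAM10 had 0.37 (adjusted p = 0.0742). DPP4, a peptidase, reached at most 0.881 normalised counts. Of the 4 tested in the second batch 0 were DE with IL-1β, with or without the block.

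CXCL9, CXCL10 and CXCL11, the interferon-induced ligands of CXCR3, differed between lines in both batches. Summed, they had 8377, 1196, 2.53, 11.7 and 4.18 normalised counts in the controls of lines 1 to 5 and 2127, 3869, 2804, 413 and 102 with IL-1β. Lines 1 and 2 were the highest controls, and with IL-1β the sum was lower in line 1 and higher in the other 4 lines. In the second batch CXCL9 had 0, 16528 and 27223 normalised counts in the controls of lines 6, 7 and 8. With IL-1β it had 102, 6507 and 4257, and with IL-1β + IL1Ra it had 0, 476959 and 96606. In lines 7 and 8 it was lowest with IL-1β alone and highest with IL1Ra, whereas in line 6 only the IL-1β library held more than a few counts. CXCL10 had 2.07, 23285 and 36860.1 in control, 404, 5835 and 2199.7 with IL-1β, and 3.81, 137905 and 43272 with IL-1β + IL1Ra, so that in line 8 the level with IL1Ra was close to its control. CXCL11 had 0, 1545 and 3655 in control, 9.52, 513 and 200.02 with IL-1β, and 0, 61854 and 8800.5 with IL-1β + IL1Ra. None of the 3 passed the test in any comparison, and the standard error of CXCL9 was 5.46 on the log2 scale without the block.

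**Figure D5:**
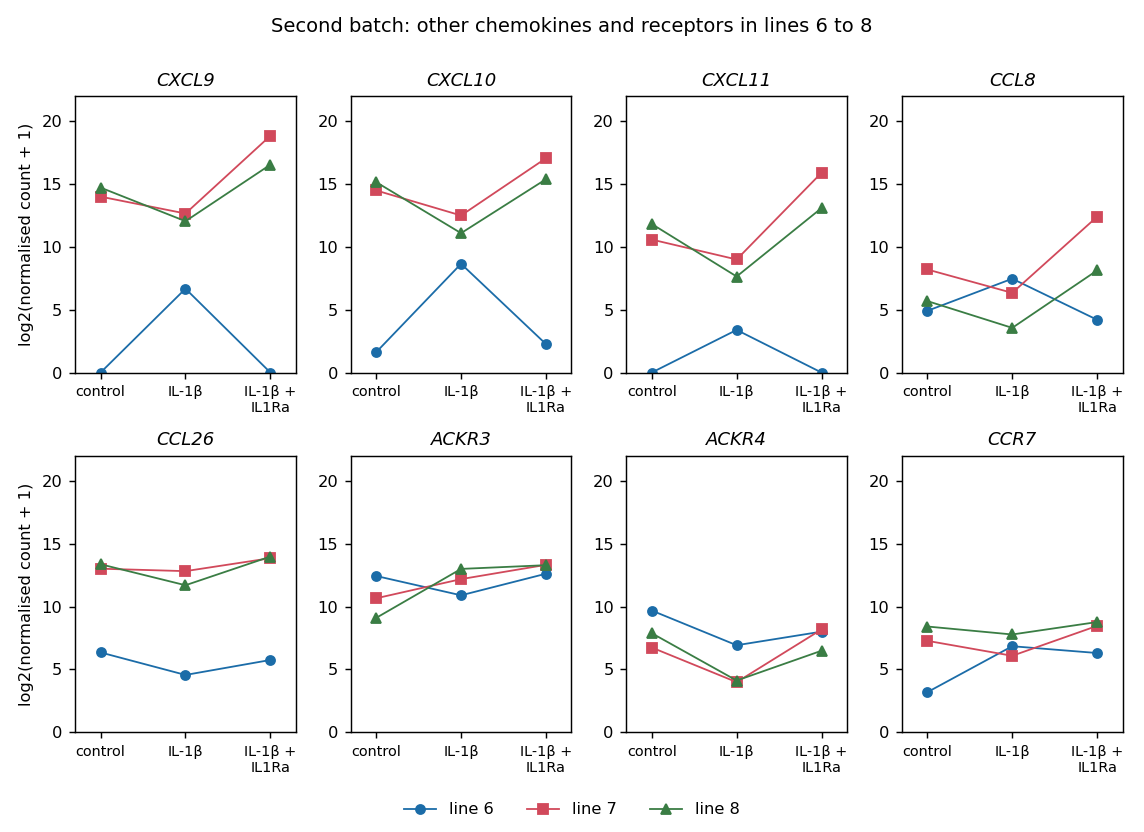
Levels of the chemokines CXCL9, CXCL10, CXCL11, CCL8 and CCL26, the atypical receptors ACKR3 and ACKR4 and the receptor CCR7 in the second batch, as log2(normalised count + 1) on the vertical axis for the 3 conditions, with a line joining the libraries of each of tenocyte lines 6 to 8. CXCL9 reaches 476959 normalised counts in line 7 with IL1Ra. In line 6 it is listed at 0 in control and with IL-1β + IL1Ra, and at 102 with IL-1β.

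Genes with the most similar profile were ranked for 4 of the chemokine genes by the root mean square difference of batch-centred log2 values over the 19 libraries, among 12350 named genes. The closest to CXCL8 were IL1A, NRG1 and CSF3, with differences of 1.42, 1.74 and 1.90, against a spread of 5.18 for CXCL8 itself. The closest to CCL20 were GPR84, IL1B and IL1B_1, at 1.10, 1.17 and 1.19, against its own spread of 3.50. CCL2 was nearest to SLC11A2, PITRM1 and MFSD2A, at 0.605 to 0.640 against its own spread of 1.46. CXCL12 was nearest to PTPRU, C26H21orf2 and LCTL, at 0.936 to 0.995 against 1.496, so its likeness was weak. These are descriptions over libraries that share lines and treatments.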

How the data were processed

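RNA from 19 tenocyte libraries was measured by paired-end sequencing. Per the labels and methods, the authors assigned reads to EquCab3.0 transcripts with Salmon, imported gene counts with tximport and normalised them with DESeq2 (version 1.36, R 4.2.1). The deposited values are these normalised counts (a signal, not raw counts) for 29196 gene names, with 1 table per batch. Of the low values, 62.3% to 77.4% per library lay within 0.1 of a whole read, so whole reads could not be restored and count models were not used. No column was left unmapped.

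Genes reaching 10 normalised counts in 5 or more (first batch) or 3 or more (second batch) libraries were fitted here on log2(normalised count + 1) with limma 3.58.1 in R 4.3.3 (trend), with Benjamini-Hochberg adjustment over all genes tested. Fold changes on this scale understate the change of low genes. The 3 conditions of the second batch shared an estimate of spread. Line codes in the titles pair libraries of a horse. Deviations from condition means correlated at 0.351 to 0.578 within lines and −0.356 to 0.288 between lines in the first batch, and at 0.535 to 0.794 and −0.625 to 0.249 in the second. The fit with the line as a block is an alternative, since the study's methods state none. The fit was tested on simulated data.

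The named genes are the 10 chemokines, every DE gene of the pathway and marker lists, and the 3 genes most like CXCL8, CCL20, CCL2 and CXCL12. These members and lists were chosen with earlier results of these data known. The values for CXCL9, CXCL10, CXCL11, CCL8, CCL26, ACKR3, CXCR2, ADAM10, ADAM17, DPP4, CCR7, VWF, CD14, PTPRC, CD3E, CD79A, EPCAM, DCN and TNMD are given as list members that were singled out after their values were seen. CSF1R, LCP1 and ITGAM were singled out in the same way. Alternatives were other pseudocounts, filters, scalings, no trend, 2 conditions only, the block, each line left out and the adjusted p alone. RefSeq names were matched for 10 of 10 genes in a table of another horse assembly, so no coordinates are given.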

Additional observations from a re-analysis of the deposited data

Results flagged for a closer look

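CX3CL1 in the first batch with IL-1β held a library far from the others. Line 3 had 3417 normalised counts, against 637 to 999.8 in the other 4 IL-1β libraries, and on the log2 scale the gap to its nearest neighbour was 0.732 of the whole range of the group, above the critical ratio of 0.71 for 5 libraries. Line 3 also had the highest CX3CL1 control, at 2543. Of the 22 groups tested in this way, 1 exceeded it, and chance gives about 1 in 20.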

How the results depend on the processing

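Of the 490 values recomputed for single chemokine genes under the alternatives, 453 kept their direction and side of the threshold, 25 passed it newly, 9 no longer passed it and 3 changed sign. The sign changes came when a line was left out. CX3CL1 with IL-1β in the second batch ranged from −0.65 without line 6 to 0.10 without line 7. Between IL-1β + IL1Ra and IL-1β, CCL2 ranged from −0.89 without line 7 to 0.070 without line 6, and CCL5 from −1.32 without line 7 to 0.93 without line 6.

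The first-batch count of 8 upregulated genes was 8 to 9 over all alternatives. In the second batch the count of 3 with IL-1β was 1 without the trend (CXCL1 and CCL20 lost), 8 with the tenocyte line as replicate block, 6 with the 2 conditions alone, and 0 to 6 when a line was left out. For IL-1β + IL1Ra against control the count of 0 was 3 with the replicate block and 0 to 6 when a line was left out, and against IL-1β it was 0 to 2 when a line was left out. The summed CXC group passed the test in the second batch with the block (8.94 and, with IL1Ra against control, 5.90), with the 2 conditions alone (8.94) and without line 6; its change ranged from 8.46 to 9.35 with IL-1β and from 5.24 to 6.61 with IL1Ra when a line was left out. Over all genes the 57 DE with IL-1β in the second batch became 34 without the trend and 364 without line 6, and without line 6 the 2 and 0 DE with IL1Ra became 63 (against control) and 10 (against IL-1β). The cause of these shifts was not tested. The block changed no other call of a chemokine gene than those given with the results.

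With scaling to equal totals the median log2-fold change of all genes was −0.19 instead of −0.0084 with IL-1β in the second batch and 0.11 instead of 0.0088 between IL-1β + IL1Ra and IL-1β. This scaling turned the direction of no chemokine gene. The second batch had 3 libraries per condition and lower totals, which limits the precision of genes with few counts.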
